A study of Homo sapiens with 16 samples.

Results

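The 38 genes described here carry fatty acids through oxidation or belong to the axis of the peroxisome proliferator-activated receptors (PPARs). They were taken by symbol from the 26475 gene symbols of the count table, and all 38 were found. Of these, 37 passed the filter on low counts and were tested among 16012 genes. ACADL, long-chain acyl-CoA dehydrogenase, was the exception, with 0 to 9 estimated counts per library.

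Long-chain fatty acids are joined to carnitine by CPT1 on the outer mitochondrial membrane, moved inwards by the carrier SLC25A20 and returned to coenzyme A by CPT2. Inside the mitochondrion, beta-oxidation repeats dehydrogenation, hydration, a further dehydrogenation and thiolysis, and hands electrons to the respiratory chain through the electron transfer flavoproteins. Peroxisomes run a parallel cycle for very long, branched and dicarboxylic acids. PPARs are nuclear receptors that bind fatty acids, pair with RXR and switch on many of these genes, with PGC-1 proteins as coactivators.

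Poly-A RNA came from A375 MA2-Luc, an established human melanoma line whose parental A375 cells carry an activating BRAF mutation. Cells were given retro-orbitally, 250000 per injection, to NSG mice, which lack T, B and NK cells, and lung metastases were collected. Mice ate a high fat or a ketogenic diet. On each diet one group had no treatment (untreated here) and one had BRAF kinase and MEK 1/2 inhibitors by oral gavage 3 times a week for 5 weeks. Each of the 4 groups had 4 libraries. The labels name neither the agents nor their doses, and give no vehicle for untreated mice, so gavage and inhibitors cannot be told apart. The series text also speaks of a cultured line, and whether cells were cultured after the lung is unclear. Nothing says that each replicate came from its own mouse, so p-values measure the spread between these libraries, which may be technical.

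Libraries held from 37.1 M to 77.3 M estimated counts (M, 1000000), and 32.2 M to 51.2 M once ribosomal RNA genes were set aside. Ribosomal RNA took 32.7% ± 13.5 (SD, n = 4) of the counts of the untreated high fat group and 17.3% ± 2.2 of its inhibitor group, and 23.7% ± 7.97 and 7.08% ± 2.00 of the matching ketogenic groups. It was thus lower under inhibitors on both diets, without overlap of the libraries, and counts of calls without the libraries richest in it are given for each comparison. Melanocyte and melanoma markers summed to 998 to 1260 counts per 1000000 (CPM) in every library. CPM are given here on library sizes scaled by the trimmed mean of M values (TMM). The marker sum was nearly all SOX10 (group means 777 to 824 CPM), S100A1, MITF and S100B. The pigment markers PMEL, MLANA, TYR, TYRP1 and DCT had means of at most 3.45 CPM in every group. Mean DCT fell from 3.45 to 0.771 CPM in the high fat pair. In the ketogenic pair it rose from 0.434 to 1.61 CPM. The sum therefore does not show that pigment markers were high or steady. Adipocyte markers were almost all LPL, with FABP4 at 0 counts in every group. Muscle markers summed to 4.07 to 12.4 CPM, with myoglobin (MB) at 0 in every group. Lung epithelium markers summed to 1.15 to 2.97 CPM and endothelial ones to 0.981 to 3.58 CPM. Macrophage markers, mostly CD68, summed to 60.9 to 77.7 CPM in untreated high fat libraries and 49.2 to 60.8 CPM with inhibitors. The ketogenic pair overlapped, at 53.9 to 88.7 CPM and 49.7 to 80.5 CPM. In the high fat pair mean CD68 fell from 53.6 to 34.4 CPM while LYZ rose from 0.55 to 3.73 CPM. CD14, CSF1R, MRC1 and MARCO had means of at most 0.31 CPM in every group. Erythroid and plasma markers, nearly all TTR, summed to 1.22 to 2.34 CPM in untreated high fat libraries and 25.2 to 61.3 CPM with inhibitors. In the ketogenic pair they summed to 2.04 to 4.78 CPM and 16.9 to 76 CPM. Fibroblast markers, led by PDGFRB, summed to 37.9 to 45.1 CPM in untreated high fat libraries and 25.4 to 42.2 CPM under inhibitors. In the ketogenic pair they summed to 24.1 to 35.3 CPM and 20.3 to 40 CPM, so that the untreated diets did not overlap. In the high fat pair mean PDGFRB fell from 27.1 to 14.3 CPM and COL1A1 from 1.25 to 0.795 CPM. The other fibroblast means rose there: COL3A1 from 0.934 to 3.91 CPM, COL1A2 from 1.37 to 2.22, DCN from 2.27 to 3.45, LUM from 0.824 to 1.72 and PDGFRA from 6.95 to 7.42. The part of these markers in the results was not tested. In bulk RNA, fewer cells of a type and less RNA per cell cannot be told apart. The host was a mouse and the counts are on human gene symbols. How mouse reads were handled is not given, so low marker values do not show that host cells were absent.

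RefSeq promoter windows (GRCh38.p14) were found for 32 of the 38 genes, 50 windows in all, and the 250 bases before each annotated start were searched. The 4 windows below are shown because CPT1A and SLC22A5 moved in opposite directions, PPARA is the receptor that changed, and PPARG is 1 of only 2 genes of the set with a match. Bases that GENCODE 29 places in an exon of the same gene are left out. Capitals mark AGGTCA, the 6-base unit that PPAR and RXR read as a direct repeat. CPT1A lies at chr11:68844411-68844527 on the minus strand, SLC22A5 at chr5:132369460-132369709 on the plus strand, PPARA at chr22:46150276-46150520 on the plus strand and PPARG at chr3:12287118-12287367 on the plus strand.
CPT1A: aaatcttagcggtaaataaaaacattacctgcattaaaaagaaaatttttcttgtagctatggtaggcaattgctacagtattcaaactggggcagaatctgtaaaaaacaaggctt
SLC22A5: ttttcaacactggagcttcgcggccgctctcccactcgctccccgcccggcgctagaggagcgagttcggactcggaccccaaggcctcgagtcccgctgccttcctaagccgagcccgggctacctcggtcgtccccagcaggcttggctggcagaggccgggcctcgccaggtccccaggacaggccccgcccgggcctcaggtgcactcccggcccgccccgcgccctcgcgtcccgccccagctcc
PPARA: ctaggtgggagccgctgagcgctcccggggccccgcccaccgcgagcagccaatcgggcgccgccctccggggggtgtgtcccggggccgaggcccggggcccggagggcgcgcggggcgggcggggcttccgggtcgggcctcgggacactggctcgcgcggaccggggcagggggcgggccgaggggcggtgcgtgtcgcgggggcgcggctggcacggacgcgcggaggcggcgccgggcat
PPARG: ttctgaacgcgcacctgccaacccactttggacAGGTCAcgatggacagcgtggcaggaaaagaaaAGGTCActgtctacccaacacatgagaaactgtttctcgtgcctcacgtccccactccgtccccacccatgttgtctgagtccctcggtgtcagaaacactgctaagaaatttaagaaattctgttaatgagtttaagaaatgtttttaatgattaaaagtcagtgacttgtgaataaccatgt

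The windows differed widely in base composition. G and C made up 32.5% of the CPT1A stretch, with 1 CpG. That stretch held only 117 bases once exon bases were left out, and the full 250-base window had 44.4% with 7 CpG. The SLC22A5 stretch had 74.0% with 27 CpG, PPARA 84.1% with 41 and PPARG 44.8% with 8. Over the 50 windows the median was 65.4% G and C with 18 CpG, and over the 35116 windows of all genes it was 58.0% with 11. On both strands, AGGTCA was present in 4 of the 50 windows, from ACOT7 and PPARG, against 12.1% of all windows. In PPARG the pair began 217 and 184 bases before the start, with 27 bases between them rather than the single base of the PPAR element. The exact repeat AGGTCANAGGTCA was in 0 of the 50 windows and in 6 (0.0171%) of all windows, and TNAAGGTCA, the element of the estrogen-related receptors, which contains AGGTCA, was in 0 and in 300 (0.854%). These counts describe exact letters in these windows, and looser matches or more distant sequence were not searched.

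In high fat mice, inhibitors against none gave changes in both directions. With edgeR's quasi-likelihood test and a Benjamini-Hochberg adjusted p under 0.05 over all genes tested, 6 of the 37 genes rose and 7 fell (16.2% and 18.9%), against 20.6% of all genes higher and 21.7% lower, so the set was called no more often than the background. The entry enzymes CPT1A and CPT2, the dehydrogenases ACADVL and ACADM, the hydratase ECHS1 and the peroxisomal thiolase ACAA1 rose. The carnitine transporter SLC22A5, the brain-type CPT1C, the short-chain dehydrogenase ACADS, the isomerase ECI1, the peroxisomal EHHADH, the thioesterase ACOT1 and the receptor PPARA fell. The carnitine shuttle and mitochondrial steps, grouped as mitochondrial here, had 21 tested genes. Of these, 5 rose and 4 fell (median log2 fold change 0.10). That group counts SLC22A5, which lies in the plasma membrane and was 1 of the 4 that fell. Of the 6 peroxisomal genes 1 rose and 1 fell (median -0.02). The median over the 37 genes was -0.05 and over all genes -0.03. Without the 3 libraries that held over 30% ribosomal RNA (untreated high fat replicates 2 and 3, untreated ketogenic replicate 2) 8 of the 13 calls remained, and CPT1A, CPT1C, ACADVL, ECI1 and EHHADH were lost. With libraries scaled on total counts alone, ribosomal RNA included, 11 genes rose and 2 fell, and the median of all genes itself moved to 0.25.

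In ketogenic mice, inhibitors against none gave 1 call among the 37 genes: the coactivator PPARGC1A fell. None rose in edgeR, and 8 genes had an unadjusted p under 0.05 (3 higher, 5 lower). DESeq2 and limma voom each called 1 higher. Their calls in both directions are counted below, and each made more than edgeR. The background was 0.856% of all genes higher and 0.887% lower. The median over the set was -0.13, over the 21 mitochondrial genes -0.08, over the 6 peroxisomal genes -0.16 and over all genes 0.01. Without the 3 libraries over 30% ribosomal RNA, and with ribosomal RNA share as covariate, 0 genes were called. On total counts alone, 2 genes rose and 1 fell, and the median of all genes was 0.28.

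Between the diets without inhibitors, 5 of the 37 genes were called higher on the ketogenic diet and 2 lower (13.5% and 5.41%), against 7.99% of all genes higher and 5.51% lower. CPT1A, ACADVL, the hydroxyacyl-CoA dehydrogenase HADH, ECHS1 and the mitochondrial thiolase ACAA2 rose, and CPT1B, the muscle-type CPT1, and SLC22A5 fell. All 7 were among the 21 genes of the carnitine shuttle and mitochondrial steps (median 0.18), which count the plasma membrane transporter SLC22A5. None of the 6 peroxisomal genes passed the test in edgeR, and 2 of them, HSD17B4 and ACAA1, had an unadjusted p under 0.05. Their log2 fold changes ran from 0.01 to 0.29 (median 0.13), and the median of all genes was -0.02. Without the 3 libraries over 30% ribosomal RNA none of the 7 calls remained, and no gene in the table was called. On total counts alone 5 genes rose and 0 fell, and the median of all genes was 0.15.

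With inhibitors on both diets, none of the 37 genes differed between ketogenic and high fat libraries in edgeR, DESeq2 or limma voom, against 0.05% of all genes higher and 0.119% lower in edgeR. CPT1C, ECI1 and ACOT1 had an unadjusted p under 0.05, all higher on the ketogenic diet. The median over the set was 0.07 and over all genes 0.02. None of the libraries in this comparison held over 30% ribosomal RNA, and the count stayed at 0 with the other groups' 3 such libraries left out.

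The inhibitor effect itself differed between the diets for 3 carnitine shuttle genes, by the interaction term in edgeR. Taken as the log2 effect in ketogenic minus that in high fat mice, it was negative for CPT1A and positive for CPT1B and SLC22A5. That is 2 of 37 higher and 1 lower (5.41% and 2.7%), against a background of 4.36% and 4.66%, so the set was close to the background. None of the 6 peroxisomal genes passed, and none of the 37 had an adjusted p under 0.05 once ribosomal RNA share entered the fit as a covariate, or without the 3 libraries over 30% ribosomal RNA. On total counts alone none passed, with a median of all genes of 0.02.

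**Figure D1:**
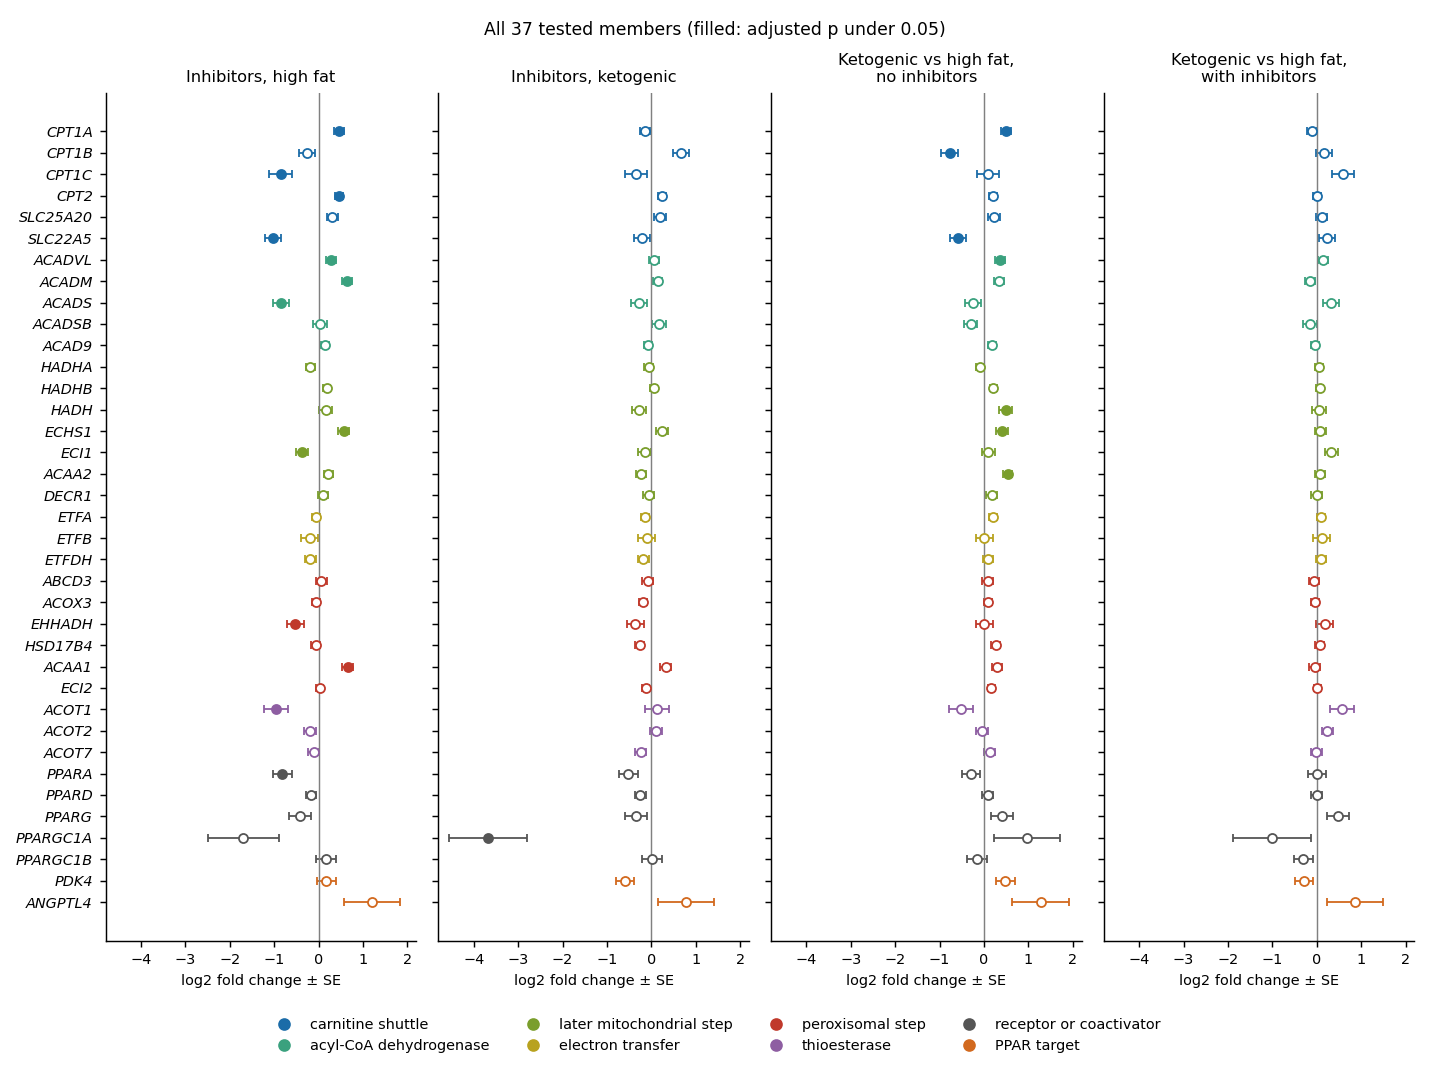
Log2 fold change with its standard error (edgeR, 4 libraries per group) of the 37 tested genes in 4 comparisons, coloured by role, with filled points where the adjusted p was under 0.05. Filled points lie on both sides of 0 in the high fat inhibitor panel (6 higher, 7 lower), while 1 point, PPARGC1A, is filled in the ketogenic inhibitor panel and none in the panel of diets under inhibitors.

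Among the carnitine shuttle genes, CPT1A, the liver-type and rate-setting isoform (chromosome 11, 68754620 to 68844410), stood lowest in untreated high fat libraries. There it measured 18.8, 20.1, 18.3 and 24.3 CPM in replicates 1 to 4, against 29.6, 26.1, 25.7 and 29.7 CPM with inhibitors. Ketogenic libraries held 30.5, 31.1, 27.3 and 26.0 CPM untreated and 27.4, 27.9, 24.8 and 23.4 CPM with inhibitors. Every untreated high fat library lay below every library of the high fat inhibitor and untreated ketogenic groups, while the ketogenic groups overlapped. CPT1A rose by 0.45 ± 0.11 (log2, SE) with inhibitors on the high fat diet (edgeR adjusted p = 0.00369). It was also higher by 0.49 ± 0.11 on the ketogenic diet without inhibitors (edgeR adjusted p = 0.00892), a comparison that uses the same untreated high fat libraries. The inhibitor effect on the ketogenic diet was -0.15 ± 0.11 (edgeR adjusted p = 0.476), and the difference of the effects -0.60 ± 0.15 (edgeR adjusted p = 0.0274). That difference lost its call in 5 of 16 fits that left out 1 library, with an adjusted p of up to 0.0678 without untreated ketogenic replicate 2.

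CPT1B and CPT1C, the muscle and brain isoforms, followed other patterns. CPT1B measured 11.9, 10.2, 13.2 and 14.9 CPM in untreated high fat libraries and 7.66, 9.35, 11.3 and 13.4 CPM with inhibitors. In ketogenic mice it stood at 7.53, 7.24, 8.53 and 6.06 CPM untreated and at 15.2, 9.43, 11.2 and 11 CPM with inhibitors. The untreated ketogenic libraries were the low ones and overlapped neither untreated high fat libraries nor ketogenic libraries with inhibitors. CPT1B fell by 0.77 ± 0.19 on the ketogenic diet without inhibitors (edgeR adjusted p = 0.0138). With inhibitors on the ketogenic diet the change was 0.67 ± 0.18, which did not pass in edgeR (adjusted p = 0.0745) but did in DESeq2 (adjusted p = 0.0187), and the difference of inhibitor effects between diets was 0.94 ± 0.26 (edgeR adjusted p = 0.0367). The latter was lost in 9 of 16 fits without 1 library, at most at an adjusted p of 0.0772 without untreated ketogenic replicate 2. The read-through gene CHKB-CPT1B covers 66.4% of the exon bases of CPT1B, and with the counts of both summed, a choice made after the data were seen, the changes were -0.69 ± 0.17 and 0.88 ± 0.24 (edgeR adjusted p = 0.016 and 0.0348).

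CPT1C measured 9.18, 8.08, 9.88 and 5.86 CPM in untreated high fat libraries and 6.73, 4.90, 3.32 and 3.29 CPM with inhibitors. Replicate 4 of the first group lay below replicate 1 of the second, so the groups overlapped, and CPT1C fell by 0.86 ± 0.25 (edgeR adjusted p = 0.0131). In ketogenic libraries it stood at 10.4, 7.21, 8.36 and 8.97 CPM untreated and at 10.3, 5.66, 5.47 and 5.94 CPM with inhibitors, a change of -0.35 ± 0.25 (edgeR adjusted p = 0.482).

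Per kilobase of GENCODE 29 exon, which spans all isoforms of a gene, CPT1A made up 41.0% ± 4.01 (SD, n = 4) of the 3 CPT1 genes in untreated high fat libraries and CPT1B 40.2% ± 3.32. With inhibitors CPT1A made up 56.1% ± 2.73 and CPT1B 33.5% ± 6.57. The shares were 57.2% ± 2.95 and 23.4% ± 2.61 in the untreated ketogenic group, and 49.9% ± 5.45 and 35.7% ± 3.47 in the ketogenic inhibitor group. CPT1C took the rest, from 10.4% ± 3.90 with inhibitors on the high fat diet to 19.5% ± 2.81 in untreated ketogenic libraries. CPT1A was thus within the spread of CPT1B in untreated high fat libraries and ahead of it in every library of the other 3 groups.

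**Figure D2:**
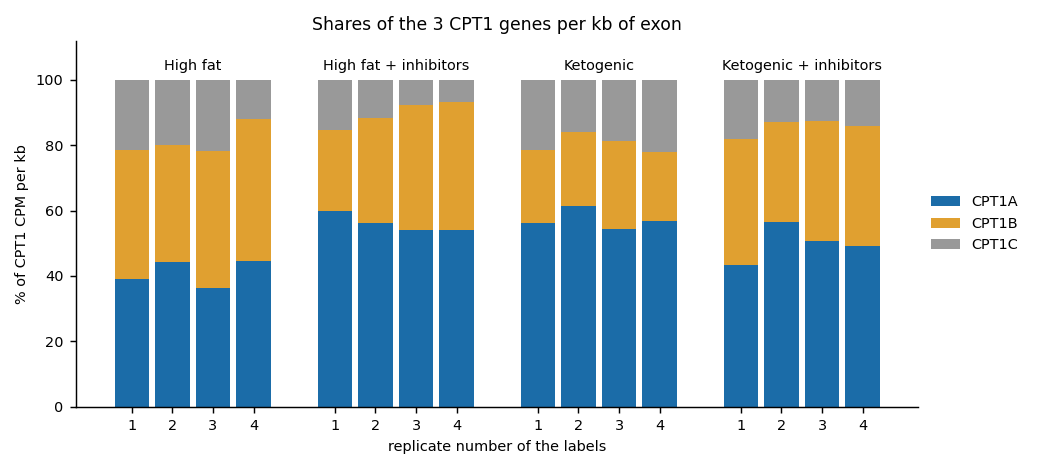
Share of each CPT1 gene in the summed CPM per kilobase of the 3, in percent, 1 stacked bar per library. CPT1A takes 36.2% to 44.4% in untreated high fat libraries and 54.3% to 61.3% in untreated ketogenic libraries.

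CPT2, which frees the acyl group inside the mitochondrion, measured 25.9, 30.4, 27.8 and 34.6 CPM in untreated high fat libraries and 39.2, 40.5, 40.8 and 42.4 CPM with inhibitors. All libraries with inhibitors were higher, and CPT2 rose by 0.46 ± 0.09 (edgeR adjusted p = 0.000795). The ketogenic values were 34.3, 35.3, 33.6 and 34.1 CPM untreated and 37.8, 41.5, 40.7 and 42.4 CPM with inhibitors. Here too the groups did not overlap, but the change of 0.24 ± 0.09 did not pass (edgeR adjusted p = 0.161). Between the diets without inhibitors CPT2 was not called in edgeR. It passed when untreated high fat replicate 4 was left out (0.29 ± 0.08, edgeR adjusted p = 0.0285). With all libraries it passed in limma voom with quality weights (0.25 ± 0.06, adjusted p = 0.00477). Over all genes, voom called far more than edgeR for this comparison and for the difference of effects, as counted below. SLC25A20, the carnitine-acylcarnitine carrier, ranged from 9.60 to 17.9 CPM over all libraries and was called in no comparison in edgeR over all groups. With inhibitors on the high fat diet its change of 0.31 ± 0.13 (edgeR adjusted p = 0.0729) passed with all libraries of the 2 groups fitted alone (0.0392) and in voom (0.00168), and without untreated high fat replicate 4 (0.0298).

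SLC22A5, the plasma membrane carnitine transporter OCTN2 (chromosome 5, 132369752 to 132395614), moved against CPT1A and CPT2. It measured 10.2, 8.19, 9.24 and 10.7 CPM in untreated high fat libraries and 5.26, 4.72, 4.44 and 4.46 CPM with inhibitors. Untreated ketogenic libraries held 5.85, 6.43, 6.90 and 6.48 CPM and those with inhibitors 8.18, 5.25, 4.52 and 4.31 CPM. The untreated high fat libraries were above all others, with replicate 1 of the ketogenic inhibitor group just under the lowest of them. SLC22A5 fell by 1.02 ± 0.18 with inhibitors on the high fat diet (edgeR adjusted p = 0.000404) and kept that call without any 1 library. It was lower by 0.58 ± 0.18 on the ketogenic diet without inhibitors (edgeR adjusted p = 0.0388), and lost that call in 7 of 8 fits without 1 library (up to 0.111 without untreated ketogenic replicate 1). The inhibitor effect on the ketogenic diet was -0.20 ± 0.18 (edgeR adjusted p = 0.576), and the difference of effects, 0.82 ± 0.25 (edgeR adjusted p = 0.0497), was lost in 14 of 16 such fits (up to 0.102, again without that library).

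The acyl-CoA dehydrogenases, which take the first step of each cycle by chain length, split by gene. ACADM, the medium-chain enzyme, measured 41.2, 43.4, 40.9 and 48.5 CPM in untreated high fat libraries and 57.0, 63.0, 78.7 and 71.5 CPM with inhibitors. These groups did not overlap, and ACADM rose by 0.63 ± 0.11 (edgeR adjusted p = 0.000371). Ketogenic libraries held 54.0, 57.1, 57.8 and 50.7 CPM untreated and 52.4, 67.0, 66.0 and 56.2 CPM with inhibitors, a change of 0.14 ± 0.11 (edgeR adjusted p = 0.526). Between the diets without inhibitors it was 0.34 ± 0.11 higher on the ketogenic one, with no overlap but an adjusted p just above the threshold (edgeR adjusted p = 0.0508). That result passed without untreated high fat replicate 4 (0.0367) and without untreated ketogenic replicate 4 (0.0427). The difference of inhibitor effects between diets, -0.50 ± 0.15, did not pass (edgeR adjusted p = 0.0529) but did in 5 fits without 1 library, down to 0.0324 without high fat inhibitor replicate 1.

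ACADS, the short-chain enzyme, measured 14.3, 10.3, 11.1 and 8.52 CPM in untreated high fat libraries and 6.58, 6.31, 5.52 and 6.17 CPM with inhibitors, again without overlap. It fell by 0.85 ± 0.19 (edgeR adjusted p = 0.00194), opposite to ACADM. The ketogenic values were 10.4, 8.49, 8.24 and 10.5 CPM untreated and 11, 6.88, 6.19 and 6.86 CPM with inhibitors, a change of -0.28 ± 0.18 (edgeR adjusted p = 0.44).

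ACADVL, the very-long-chain enzyme of the inner membrane, was the most abundant acyl-CoA dehydrogenase per kilobase. It measured 271, 269, 224 and 240 CPM in untreated high fat libraries and 310, 314, 292 and 302 CPM under inhibitors. Ketogenic libraries held 311, 344, 290 and 346 CPM without treatment and 382, 302, 282 and 376 CPM under inhibitors. The untreated high fat libraries were the lowest. ACADVL rose by 0.28 ± 0.11 with inhibitors on the high fat diet (edgeR adjusted p = 0.0497) and by 0.36 ± 0.11 on the ketogenic diet without them (edgeR adjusted p = 0.0381). The first call was lost in each of 8 fits without 1 library (up to 0.128 without untreated high fat replicate 3), and the second in 5 of 8 (up to 0.117 without untreated ketogenic replicate 2). ACADSB and ACAD9, the branched-chain enzyme and a complex I assembly factor, were called in no comparison, with log2 changes between -0.30 and 0.18.

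Of the later mitochondrial steps, ECHS1, the short-chain enoyl-CoA hydratase, rose in both comparisons that use the untreated high fat libraries. It measured 75.5, 75.2, 68.9 and 81.8 CPM in untreated high fat libraries and 102, 111, 115 and 116 CPM with inhibitors. Untreated ketogenic libraries held 98.9, 116, 93.4 and 88.8 CPM and those with inhibitors 103, 102, 106 and 157 CPM. All untreated high fat libraries were below the libraries of the other groups. ECHS1 rose by 0.56 ± 0.13 with inhibitors on the high fat diet (edgeR adjusted p = 0.00263) and by 0.40 ± 0.13 on the ketogenic diet without inhibitors (edgeR adjusted p = 0.0474). The second call was lost in 6 of 8 fits without 1 library, up to 0.167 without untreated ketogenic replicate 2. The difference of inhibitor effects between diets was not called in edgeR, but passed without ketogenic inhibitor replicate 4, the highest library (-0.49 ± 0.12, edgeR adjusted p = 0.017), and with all libraries in voom (-0.52 ± 0.11, adjusted p = 0.00176).

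ACAA2, the mitochondrial thiolase that ends the cycle, measured 31.9, 35.4, 28 and 21.9 CPM in untreated high fat libraries and 44.8, 41.8, 41.5 and 41.5 CPM in untreated ketogenic ones. The ketogenic libraries were all higher, and ACAA2 rose by 0.53 ± 0.11 (edgeR adjusted p = 0.00823). With inhibitors it stood at 33.9, 35.8, 32.8 and 33.8 CPM on the high fat diet and at 33.2, 38.2, 35.9 and 36.9 CPM on the ketogenic diet. All 4 ketogenic libraries with inhibitors lay below the untreated ones, but the change of -0.23 ± 0.11 did not pass (edgeR adjusted p = 0.278). Leaving out untreated high fat replicate 2 gave a call of 0.32 ± 0.11 for the high fat inhibitor comparison and of -0.55 ± 0.15 for the difference of effects (edgeR adjusted p = 0.0336 and 0.042).

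HADH, which oxidizes the hydroxyacyl intermediate, measured 26.2, 26.0, 27.0 and 15.1 CPM in untreated high fat libraries and 33.8, 34.5, 29.1 and 35.2 CPM in untreated ketogenic ones, and rose by 0.49 ± 0.15 (edgeR adjusted p = 0.0364). Under inhibitors it stood at 24.9, 29.9, 24.5 and 26.1 CPM in high fat and at 24.4, 27.2, 29.8 and 27.8 CPM in ketogenic libraries. The groups overlapped in both inhibitor comparisons. The diet call was lost in 3 of 8 fits without 1 library, those without untreated ketogenic replicates 1, 2 and 4 (up to 0.1).

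ECI1, an isomerase for unsaturated chains, measured 39.7, 35.9, 32.5 and 31.5 CPM in untreated high fat libraries and 24.5, 30.2, 27.2 and 26.0 CPM with inhibitors, and fell by 0.37 ± 0.14 (edgeR adjusted p = 0.0425). The groups did not overlap, yet the call was lost in 6 of 8 fits without 1 library (up to 0.124 without untreated high fat replicate 1). In ketogenic mice it stood at 36.8, 36.2, 34.5 and 42.8 CPM untreated and at 37.7, 25.9, 28.3 and 43.2 CPM with inhibitors, and the libraries overlapped.

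HADHA and HADHB encode the subunits of the trifunctional protein, and their RefSeq starts lie head to head, 307 bases apart on chromosome 2. Neither was called in any comparison in edgeR over all groups. With inhibitors on the high fat diet HADHA changed by -0.19 ± 0.10 (edgeR adjusted p = 0.115) and HADHB by 0.18 ± 0.08 (edgeR adjusted p = 0.0709), with means of 227 and 198 CPM for the first and 112 and 127 CPM for the second. Without untreated high fat replicate 4 HADHA was at -0.27 ± 0.09 and passed (edgeR adjusted p = 0.0267), as it did with all libraries in voom (-0.29 ± 0.07, adjusted p = 0.00104). HADHB passed with all libraries in DESeq2 (0.19 ± 0.07, adjusted p = 0.0299), in voom (0.14 ± 0.06, adjusted p = 0.0395) and with the 2 groups fitted alone (0.19 ± 0.07, edgeR adjusted p = 0.0392). DECR1, a reductase for unsaturated chains, ranged from 26.3 to 42.2 CPM and was not called. The electron transfer genes ETFA, ETFB and ETFDH were called in no comparison, with log2 changes from -0.20 to 0.20.

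Among the 6 peroxisomal genes, ACAA1, the peroxisomal thiolase, rose and EHHADH, the L-bifunctional enzyme, fell with inhibitors on the high fat diet. ACAA1 measured 40.4, 36.3, 32.1 and 34.9 CPM in untreated high fat libraries and 48.0, 55.8, 62.8 and 59.8 CPM with inhibitors, without overlap, and rose by 0.65 ± 0.12 (edgeR adjusted p = 0.000628). Ketogenic libraries held 45.2, 44.5, 44.9 and 40.8 CPM untreated and 49.1, 51.4, 47.7 and 70.2 CPM with inhibitors. There the groups did not overlap either, and the change of 0.32 ± 0.12 did not pass (edgeR adjusted p = 0.181). The difference of inhibitor effects was not called in edgeR, but passed without ketogenic inhibitor replicate 4, the highest library (-0.48 ± 0.13, edgeR adjusted p = 0.0235), and with all libraries in voom (-0.53 ± 0.12, adjusted p = 0.00251). Exons of other genes, mainly DLEC1, cover 21.2% of its exon bases, and the strand setting of the counts is not given in the sources used here.

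EHHADH measured 10.7, 9.23, 9.76 and 8.24 CPM in untreated high fat libraries and 9.69, 5.53, 5.27 and 5.73 CPM with inhibitors. Replicate 1 with inhibitors lay inside the untreated range and the other 3 below it, and EHHADH fell by 0.53 ± 0.19 (edgeR adjusted p = 0.0327). The call was lost in 6 of 8 fits without 1 library, up to 0.101 without high fat inhibitor replicate 3. The ketogenic values were 8.46, 8.13, 10.6 and 11 CPM untreated and 7.69, 8.33, 7.93 and 5.73 CPM with inhibitors, with overlap and a change of -0.36 ± 0.19 (edgeR adjusted p = 0.322).

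The other 4 peroxisomal genes, the importer ABCD3, the branched-chain oxidase ACOX3, the D-bifunctional enzyme HSD17B4 and the isomerase ECI2, were called in no comparison. HSD17B4 came nearest, at 98.0 ± 6.93 CPM (SD, n = 4) in untreated high fat and 118 ± 8.02 CPM in untreated ketogenic libraries, which did not overlap (log2 0.26 ± 0.10, edgeR adjusted p = 0.082). With inhibitors on the ketogenic diet it stood at 98.3 ± 13.5 CPM (-0.26 ± 0.10, edgeR adjusted p = 0.179).

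**Figure D3:**
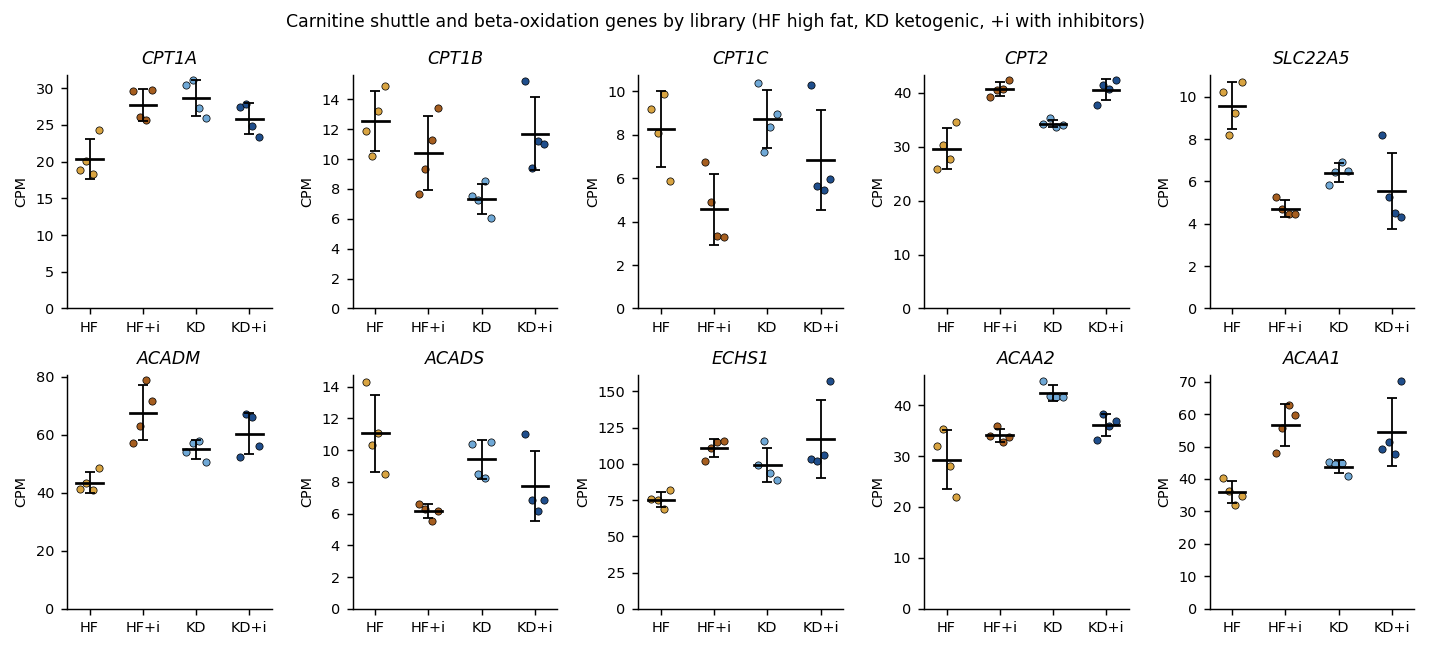
CPM of 10 carnitine shuttle and beta-oxidation genes in each library (points), with mean and SD of the 4 libraries per group (lines), on axes that start at 0. In untreated high fat libraries CPT1A, CPT2, ACADM, ECHS1 and ACAA1 lie below, and SLC22A5 and ACADS above, all high fat libraries with inhibitors.

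Of the thioesterases, which release free fatty acids from coenzyme A, ACOT1 measured 4.06, 1.99, 3.73 and 2.85 CPM in untreated high fat libraries and 1.38, 1.81, 1.42 and 1.85 CPM with inhibitors. It fell by 0.97 ± 0.27 (edgeR adjusted p = 0.0099), and the libraries did not overlap. Untreated ketogenic libraries held 1.81, 1.90, 2.2 and 2.93 CPM and those with inhibitors 2.64, 1.93, 1.60 and 3.47 CPM. ACOT1 is a near copy of its neighbour ACOT2: 53.1% of its 50-base transcript windows also occur there, so the split of reads between them is uncertain. With both summed, chosen after the data were seen, the change was -0.30 ± 0.14 and did not pass (edgeR adjusted p = 0.0893). The difference of inhibitor effects for ACOT1 alone, 1.10 ± 0.38, did not pass (edgeR adjusted p = 0.0783) but did without untreated ketogenic replicate 4 or ketogenic inhibitor replicate 3 (0.0454 in each). ACOT2 and ACOT7 alone were called in no comparison.

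Of the 3 PPAR receptors, PPARA, the receptor best known for switching on oxidation in liver, fell with inhibitors on the high fat diet. It measured 15.8, 17.5, 17.9 and 16.6 CPM in untreated high fat libraries and 11.8, 9.61, 8.09 and 8.84 CPM with inhibitors. Every library with inhibitors was lower, and PPARA fell by 0.82 ± 0.21 (edgeR adjusted p = 0.00612). Ketogenic libraries held 13.7, 10.6, 15.9 and 15.3 CPM untreated and 12, 10.9, 10.8 and 4.90 CPM with inhibitors. These overlapped, and the change of -0.52 ± 0.21 did not pass (edgeR adjusted p = 0.205). The 2 effects were not shown to differ in edgeR (difference 0.30 ± 0.30, edgeR adjusted p = 0.542), while voom gave 0.54 ± 0.18 (adjusted p = 0.0302). On total counts alone the high fat call was lost (edgeR adjusted p = 0.0851).

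PPARD, the broadly expressed receptor, measured 22.0, 22.9, 22.2 and 16.8 CPM in untreated high fat libraries and 19.1, 19.6, 17.6 and 18.1 CPM with inhibitors. In ketogenic mice it stood at 23.3, 21.5, 21 and 22.6 CPM untreated and at 18.7, 18.8, 21.8 and 15 CPM with inhibitors. The groups overlapped in each comparison, and the changes with inhibitors, -0.17 ± 0.12 and -0.25 ± 0.12, did not pass (edgeR adjusted p = 0.243 and 0.258). PPARG, the adipocyte receptor whose window is printed above, measured 16.6, 15, 16.2 and 21.5 CPM in untreated high fat libraries and 8.77, 12.7, 14.3 and 16.1 CPM with inhibitors. The ketogenic libraries held 17.6, 31.7, 19.1 and 23.0 CPM untreated and 11.7, 18, 14.4 and 28.1 CPM with inhibitors. Its spread within groups was wide, and it was called in no comparison (log2 changes from -0.42 to 0.48).

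PPARGC1A, the coactivator PGC-1 alpha, was scarce. Its libraries held 14 to 51 counts in the untreated high fat group, 0 to 25 with inhibitors, 13 to 177 in the untreated ketogenic group and 2 to 8 with inhibitors. In high fat libraries that is 0.806, 0.498, 0.838 and 0.245 CPM untreated and 0, 0.220, 0.0958 and 0.407 CPM with inhibitors. Among ketogenic ones it is 0.634, 2.71, 0.253 and 1.07 CPM untreated and 0.0491, 0.120, 0.0439 and 0.139 CPM with inhibitors. All 4 ketogenic libraries with inhibitors were lower than the untreated ones, and PPARGC1A fell by 3.68 ± 0.87 (edgeR adjusted p = 0.04). The call was lost in 7 of 8 fits without 1 library, with an adjusted p of up to 0.123 and a change of -2.83 without untreated ketogenic replicate 2, the highest library. It was also lost in voom (0.0738), with the replicate block (0.0542), with only the groups compared (0.0856), without the libraries over 30% ribosomal RNA (0.194) and, with ribosomal RNA share as covariate, at a change of -1.85 ± 1.34 (edgeR adjusted p = 0.817), while it passed in DESeq2 (0.000603). On the high fat diet the groups overlapped, and the change of -1.70 ± 0.80 did not pass (edgeR adjusted p = 0.0941), though it did without high fat inhibitor replicate 4 (0.0431) and, with all libraries, in voom (0.0359). The 2 effects were not shown to differ (difference -1.98 ± 1.15, edgeR adjusted p = 0.272).

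PPARGC1B, its relative PGC-1 beta, measured 6.60, 5.96, 8.54 and 7.49 CPM in untreated high fat libraries and 7.84, 7.32, 7.49 and 9.24 CPM with inhibitors. In ketogenic mice it stood at 6.50, 7.54, 6.94 and 4.51 CPM untreated and at 4.12, 9.72, 6.26 and 5.83 CPM with inhibitors, and it was called in no comparison. Per kilobase, PPARGC1B made up 83.4% ± 11.5 (SD, n = 4) to 98.4% ± 0.814 of the PGC-1 pair across the groups.

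The 2 PPAR targets outside oxidation differed widely in level. PDK4, the kinase that shuts pyruvate dehydrogenase when fat is burned, was the most abundant gene of the set per kilobase of exon. It measured 362, 425, 418 and 281 CPM in untreated high fat libraries and 372, 380, 432 and 492 CPM with inhibitors. Ketogenic libraries held 358, 685, 388 and 634 CPM untreated and 261, 390, 429 and 293 CPM with inhibitors. Replicates 2 and 4 of the untreated ketogenic group stood high, the groups overlapped in every comparison, and none was called (diet without inhibitors 0.48 ± 0.21, edgeR adjusted p = 0.139).

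ANGPTL4, a secreted inhibitor of lipoprotein lipase, measured 1.28, 1.56, 0.909 and 6.54 CPM in untreated high fat libraries and 3.80, 4.75, 8.22 and 6.98 CPM with inhibitors. In ketogenic mice it stood at 3.80, 12.1, 5.65 and 3.52 CPM untreated and at 4.11, 5.85, 12.9 and 20.5 CPM with inhibitors. Untreated high fat replicate 4 stood apart from the other 3 of its group, and no comparison passed in edgeR. Without that 1 library, ANGPTL4 was higher by 2.24 ± 0.57 under inhibitors in high fat mice and by 2.32 ± 0.58 on the ketogenic diet without inhibitors (edgeR adjusted p = 0.00655 and 0.0203), against 1.2 ± 0.64 and 1.28 ± 0.64 with it. Both also passed with all libraries in voom (adjusted p = 0.00275 and 0.014), which over all genes called far more than edgeR for the second comparison.

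**Figure D4:**
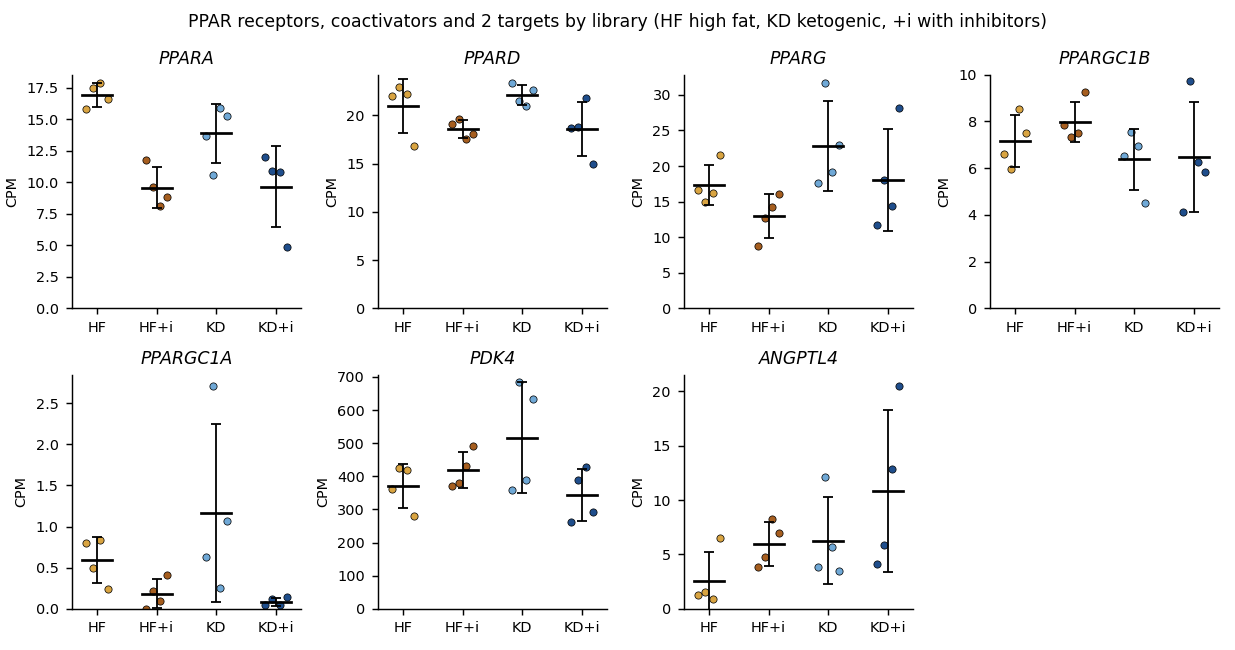
CPM of the 3 PPAR receptors, the 2 PGC-1 coactivators, PDK4 and ANGPTL4 in each library (points), with mean and SD of the 4 libraries per group (lines), on axes that start at 0. PPARA lies between 15.8 and 17.9 CPM in untreated high fat libraries and between 8.09 and 11.8 CPM with inhibitors.

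Over the 5 comparisons, 21 of the 38 genes were called in none, among them the untested ACADL. Of the others, 12 were called in 1, 3 in 2, and CPT1A and SLC22A5 in 3. All 3 comparisons that called CPT1A and SLC22A5 use the untreated high fat libraries. A like tally over all genes was not made, so these counts do not set the 38 genes apart from other genes. The share of all genes called in each comparison is given above. For inhibitors on the high fat diet alone it was 20.6% higher and 21.7% lower.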

How the data were processed

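RNA-seq libraries (16, 4 per group) were analysed from the authors' deposited table of expected counts per gene symbol (estimated counts, 13.0% of the values not whole, rounded here). Bowtie2 2.1.0, RSEM 1.2.15 and hg38 stand in the submitters' processing notes without a stated role. Not given in the sources used here are the gene annotation, whether counting used strand, and how reads of the host mouse were handled. Genes were kept by edgeR's filterByExpr, scaled by TMM, and fitted over all 4 groups with the quasi-likelihood test (edgeR 4.0.16, R 4.3.3), with Benjamini-Hochberg adjustment over 16012 genes and a threshold of 0.05. CPM are on TMM-scaled library sizes, and SDs are over 4 libraries. Depth was 37.1 to 77.3 M counts per library, so that 1 count equals well under 0.1 CPM. Every gene of the set is named, and among other pathway genes the 3 of smallest adjusted p in each direction. Alternatives used DESeq2 1.42.0, limma 3.58.1 and other scalings, filters and library subsets, and 2 sums of overlapping or near-identical genes were added after seeing the data. The set and the lists were chosen with earlier results of these data known. Scripts were tested on simulated data.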

Additional observations from a re-analysis of the deposited data

Results flagged for a closer look

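Of 148 sets of 4 libraries (37 genes in 4 groups), 14 (9.46%) held a library set apart by a gap past Dixon's critical value (95%), where chance gives about 1 in 20. Untreated high fat replicate 4 stood apart for HADH at 15.1 CPM (others 26 to 27), PPARD at 16.8 CPM (22 to 22.9) and ANGPTL4 at 6.54 CPM (0.909 to 1.56). Ketogenic inhibitor replicate 4 stood apart for ECHS1 at 157 CPM (102 to 106), ACAA1 at 70.2 CPM (47.7 to 51.4) and PPARA at 4.9 CPM (10.8 to 12). Ketogenic inhibitor replicate 1 stood apart for CPT1C at 10.3 CPM (5.47 to 5.94) and ACADS at 11 CPM (6.19 to 6.88), and replicate 3 for HADHB at 121 CPM (137 to 139). High fat inhibitor replicate 1 stood apart for EHHADH at 9.69 CPM (5.27 to 5.73) and HSD17B4 at 85.1 CPM (95.1 to 96.7). Among untreated ketogenic libraries, ACAA2 was 44.8 CPM in replicate 1 (41.5 to 41.8), DECR1 32.7 CPM in replicate 2 (38.1 to 38.4) and ACAA1 40.8 CPM in replicate 4 (44.5 to 45.2).

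The effect of the inhibitors differed between the diets, by the interaction term in edgeR, for CPT1A (log2 effect in ketogenic minus high fat mice -0.60), CPT1B (0.94) and SLC22A5 (0.82). Of the 37 genes 5.41% were called higher and 2.7% lower, close to the 4.36% and 4.66% of all genes. All 3 calls were lost on library size alone, with ribosomal RNA share as covariate and without libraries over 30% ribosomal RNA. Of 16 fits that left out 1 library, 5 lost the call of CPT1A, 9 that of CPT1B and 14 that of SLC22A5.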

How the results depend on the processing

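Of 24 calls over the 5 comparisons, all 24 kept their sign in every alternative, 13 passed in every fit that left out 1 library and 6 in every other alternative. For inhibitors on the high fat diet the 13 calls became 8 without libraries over 30% ribosomal RNA, and 10 to 15 when 1 library was left out. For inhibitors on the ketogenic diet the 1 call became 2 in DESeq2, 4 in limma voom with quality weights and 3 on library size alone. It became 0 with a filter of 1 CPM in 4 libraries, where PPARGC1A is not tested, with only the groups compared, with the ribosomal RNA share as covariate and without libraries over 30% ribosomal RNA, and 0 to 1 when 1 library was left out. For the diets without inhibitors the 7 calls became 16 in limma voom, 4 with no filter on low counts and 0 without libraries over 30% ribosomal RNA, and 3 to 8 when 1 library was left out. For the diets with inhibitors the 0 calls became 1 (EHHADH) without the library least like each group. For the difference of effects the 3 calls became 5 in DESeq2, 11 in limma voom, 0 on library size alone, 0 with the ribosomal RNA covariate, 0 without libraries over 30% ribosomal RNA and 6 without the library least like each group, and 0 to 5 when 1 library was left out. The cause was not tested. Over all genes, calls for inhibitors on the high fat diet went from 6771 to 3880 without libraries over 30% ribosomal RNA. On the ketogenic diet 279 became 880 in DESeq2, 1456 in voom, 981 on library size alone, 54 with only the groups compared, 0 with the covariate and 60 without those libraries. The 2163 for the diets without inhibitors became 6393 in voom, 3275 with only the groups compared and 0 without those libraries. The 27 for the diets with inhibitors became 345 in DESeq2, 1057 in voom, 1 on library size alone, 0 with only the groups compared, 0 with the covariate, 3 without those libraries and 432 without the least like libraries. The 1444 for the difference became 2487, 5208, 238, 30, 0 and 2972 in DESeq2, voom, library size alone, the covariate, without those libraries and without the least like libraries. Replicate numbers are shared by the groups. The deviations of same-numbered libraries from their group means had a correlation over 0.1 in 7 of 24 pairs. The correlations ran from -0.307 to 0.377, with a median of 0.0396. Pairs with different numbers were not tallied at that cut. Among the 4 libraries of the other group, the same-numbered one correlated best in 7 of 24 pairs. Whether the numbers mark libraries handled together was not tested. A replicate block gave 14, 0, 8, 0 and 3 calls among the genes of the set in the 5 comparisons. Calls over all genes are not given here for the block, the other low-count filters or the fits without 1 library. The counts of the set under those settings therefore cannot be read against the background.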

Other observations

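A wider list of 96 genes of fatty acid activation, oxidation and PPAR signalling was also read, of which 78 were tested. In high fat mice under inhibitors 13 rose and 19 fell (edgeR adjusted p under 0.05; median log2 fold change 0.01), against 20.6% of all genes higher and 21.7% lower, so the list was close to the background. ACOT11, a thioesterase, rose by 2.11 ± 0.30 (log2, SE; mean 1.4 to 6.03 CPM, edgeR adjusted p = 0.000107), CD36, a fatty acid receptor of the plasma membrane, by 2.80 ± 0.44 (0.165 to 1.17 CPM, 0.000202) and TFAM, which maintains mitochondrial DNA, by 0.61 ± 0.11 (27.6 to 42 CPM, 0.000639). ACAD11, an acyl-CoA dehydrogenase, fell by 1.28 ± 0.17 (37.1 to 15.3 CPM, edgeR adjusted p = 7.19e-05), AMACR, the racemase that prepares branched chains, by 0.97 ± 0.14 (140 to 71.6 CPM, 9.92e-05) and ACSM3, a medium-chain acyl-CoA synthetase, by 3.15 ± 0.48 (4.92 to 0.552 CPM, 0.000151).

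In ketogenic mice under inhibitors 0 of the 78 rose and 1 fell in edgeR (0.856% and 0.887% of all genes), AMACR by 1.15 ± 0.14 (175 to 79.2 CPM, edgeR adjusted p = 0.00109), and at an unadjusted p under 0.05 4 were higher and 10 lower. Between the diets without inhibitors 12 were higher on the ketogenic diet and 6 lower, against 7.99% and 5.51% of all genes, and no gene of the table was called without the 3 libraries over 30% ribosomal RNA. The higher ones were led by ACOX2, the branched-chain acyl-CoA oxidase (1.35 ± 0.24, edgeR adjusted p = 0.00366), CD36 (2.25 ± 0.44, 0.00582) and ACOT11 (1.46 ± 0.30, 0.00707). The lower ones were led by ACSL1, a long-chain acyl-CoA synthetase, at -0.71 ± 0.11 (92.3 to 56.3 CPM, edgeR adjusted p = 0.00235), ACAD11 at -0.80 ± 0.17 (0.00823) and SLC25A29, a mitochondrial carrier, at -0.72 ± 0.16 (0.01). These comparisons share the untreated high fat libraries with those of the inhibitors on that diet. With inhibitors on both diets none of the 78 passed in edgeR, and 6 had an unadjusted p under 0.05. The inhibitor effect differed between diets for 12 of the 78 in edgeR, 8 higher in ketogenic mice and 4 lower, against 4.36% and 4.66% of all genes. Over all genes such calls went from 1444 to 30 with ribosomal RNA share as covariate and to 0 without those 3 libraries. The 8 were led by ACAD11 (1.15 ± 0.24, edgeR adjusted p = 0.0143), ACSM3 (2.62 ± 0.64, 0.0238) and ACSL1 (0.63 ± 0.16, 0.0253), and the 4 by ACOX2 (-1.46 ± 0.33, 0.0194), CD36 (-2.61 ± 0.59, 0.0194) and ACOT11 (-1.72 ± 0.42, 0.0232).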
